A study of Oryctolagus cuniculus with 8 samples.

Results

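The carbonic anhydrases CA2, CA3, CA4, CA7, CA8, CA10, CA11, CA12 and CA14 were examined in the retinas of rabbits kept on 4 diets. The members were taken by gene symbol from a table of 25666 genes, of which 19293 are protein-coding. A row was found for 8 of the 9 members, and CA11 was not analysed here. The retinas came from male Chinchilla rabbits, genotype WT, aged about 10 months, after 6 months of feeding. Control animals received standard chow (ND), and the other groups received the same chow with additions. The high-fat diet (HFD) contained 10% lard and 0.5% cholesterol, and the high-sucrose diet (HSD) contained 40% sucrose. The combined diet (HFSD) had the lard and cholesterol of HFD together with 35% sucrose. RNA of 2 dissected retinas per group was sequenced, which gives 8 libraries. Levels are in FPKM, the fragments of a gene divided by its length and by the depth of its library. This allows comparison between genes and between retinas, but it does not adjust for the composition of a library. The sum over protein-coding genes ranged from 529976 FPKM in the first HSD library to 613559 FPKM in the first HFD library.

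Carbonic anhydrases are zinc enzymes that interconvert carbon dioxide and water with bicarbonate and a proton. In the retina, which produces much carbon dioxide and lactate, they take part in moving acid and bicarbonate away from the photoreceptors, through Müller glia and the retinal pigment epithelium. Some members work in the cytosol, some are fixed to the cell surface with the active site outside the cell, and the carbonic anhydrase-related proteins have lost the residues needed for catalysis.

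The library depth used in the FPKM, as recovered from the smallest FPKM steps, was between 15764577 and 22785832. Fragments recovered per gene summed to between 15223090 and 22293012 per library. In the second ND and the first HFD library that sum exceeded the depth, so the recovered depth is not a count of the fragments held. Intervals of fragment numbers given here cover counting error only. Rod markers dominated every library, with a summed level of 28576 to 40436 FPKM over the 6 of 8 listed rod genes present in the table, as the label retina requires. The second HSD library stood apart by skeletal muscle transcripts, with a summed level of 527 FPKM over 9 of 12 listed muscle genes against 3.39 to 5.50 FPKM in the other 7. The ND libraries stood apart from each other by myelin genes, whose summed level over 6 of 7 listed genes was 699 and 95.7 FPKM on ND, 467 and 341 on HFD, 58.6 and 45.4 on HSD, and 61.0 and 154 on HFSD. GFAP, a filament of astrocytes, was at 524 and 12.1 FPKM on ND and 216 and 203 on HFD. It was at 2.37 and 1.08 FPKM on HSD and 3.05 and 69.5 on HFSD. For sucrose all 6 myelin genes were lower with an unadjusted p under 0.05, where 18.3% of all genes tested had one, none was called, and their part in the values of CA12, CA14 and GLUL was not tested. Nothing in the labels says that the 2 retinas of a group came from separate animals, so p-values measure only the spread between these samples. All 3 diet comparisons share the same ND libraries.

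Among the carbonic anhydrases found, CA2 had the highest level, followed by CA14 and then by CA10 in all 4 diets. Of the 19293 protein-coding genes 13297 bear a symbol, and the sums and orders given here cover only carbonic anhydrases found by symbol. Over the 14 found, the summed level was 555 to 748 FPKM. CA2 made up 73.5% to 80.8% of it and ranked between position 102 and position 157 among protein-coding genes. The levels of CA2, CA14 and CA10 did not overlap one another in any diet. Below them the order depended on the diet. By its mean, CA12 ranked 4 of the 8 members on ND, 5 on HFD and 6 on HSD and HFSD, while CA3 ranked 5 on ND and 4 in the other diets. On ND the levels of CA3, CA8 and CA4 overlapped. On HSD, CA3 overlapped CA4, and CA12 overlapped CA8. On HFSD, CA4 overlapped CA12, and CA8 overlapped CA7 in all 3 diets other than ND. CA7 had the lowest mean of the 8 members in every diet.

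**Figure D1:**
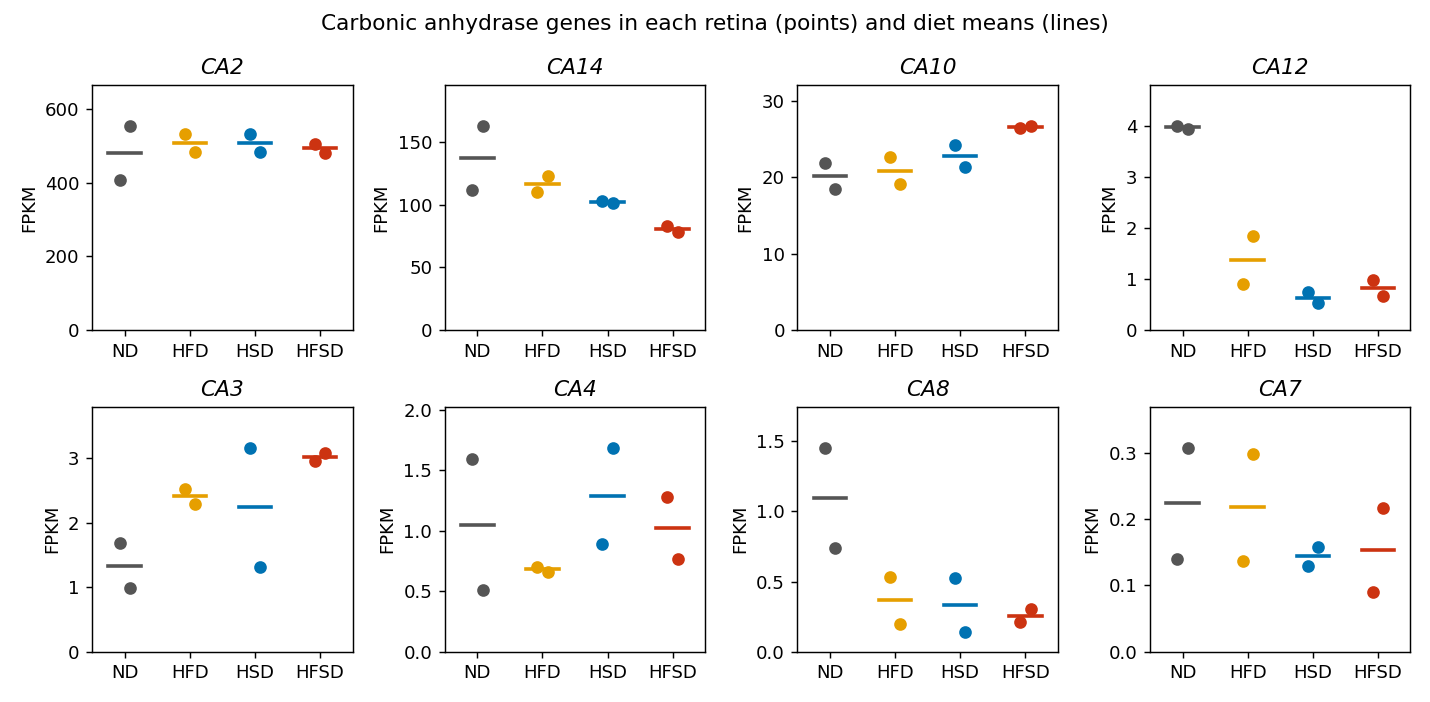
FPKM (y axis, from 0, with its own scale in each panel) of the 8 carbonic anhydrases found, in the 4 diets (x axis). Points are single retinas and lines are means of 2 retinas. CA12 is near 4 FPKM in both ND retinas and at or below 1.85 FPKM in the 6 others, CA14 is lowest on HFSD, and the 6 diet retinas of CA2 lie between its ND retinas.

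A level of 1 FPKM or more in 2 or more libraries was needed for the test, and 6 members had it. None of the 6 passed an adjusted p of 0.05 in any comparison, by limma on log2(FPKM + 1) with Benjamini-Hochberg adjustment over 12204 genes. Few genes of any kind passed. The share called was 0.00819% for HFD, 0.0574% for HSD and 0.0164% for HFSD against ND. At an unadjusted p under 0.05, 1 member stood out on HFD, 1 on HSD and 4 on HFSD, where 4.31%, 7.2% and 8.07% of all genes tested did so. The members and lists were chosen with earlier results of these data known, so counts above such shares are a description and not separate support. Both retinas of a diet lay below both ND retinas for 1 of the 6 members on HFD, 2 on HSD and 2 on HFSD, against 13.3%, 19.7% and 20.6% of all genes tested. Both lay above for 1, 0 and 2 members, against 12.5%, 19.3% and 21.6%. Limma with voom weights on the recovered fragments gave the same 3 counts and called none. CA12 was the member on HFD and HSD, and it was joined on HFSD by CA14, CA3 and CA10. The median difference from ND over the 6 members was −0.080 on HFD, 0.14 on HSD and 0.036 on HFSD on the log2 scale. Over all genes tested it was 0.0063, −0.0018 and −0.0040.

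The methods of the study select genes by a fold of group means, (FPKM + 1) of the diet over (FPKM + 1) of ND, below 0.65 or above about the reciprocal of 0.65, without a test. By that rule 1 of 8 members lay past a limit on HFD, 2 on HSD and 4 on HFSD. Over all protein-coding genes, many of them hardly expressed, the shares were 1.76%, 3.95% and 3.43%. The counts of members rest on single libraries. On HFD the count was 2 without the first ND retina or the first HFD retina and 3 without the second ND retina. On HSD it was 3 without the first ND retina, and on HFSD it was 2 without the second ND retina. CA12 was below the lower limit in all 3 diets, which 0.301% of protein-coding genes were. CA8 was below it on HSD and HFSD, CA14 on HFSD, and CA3 was above the upper limit on HFSD.

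**Figure D2:**
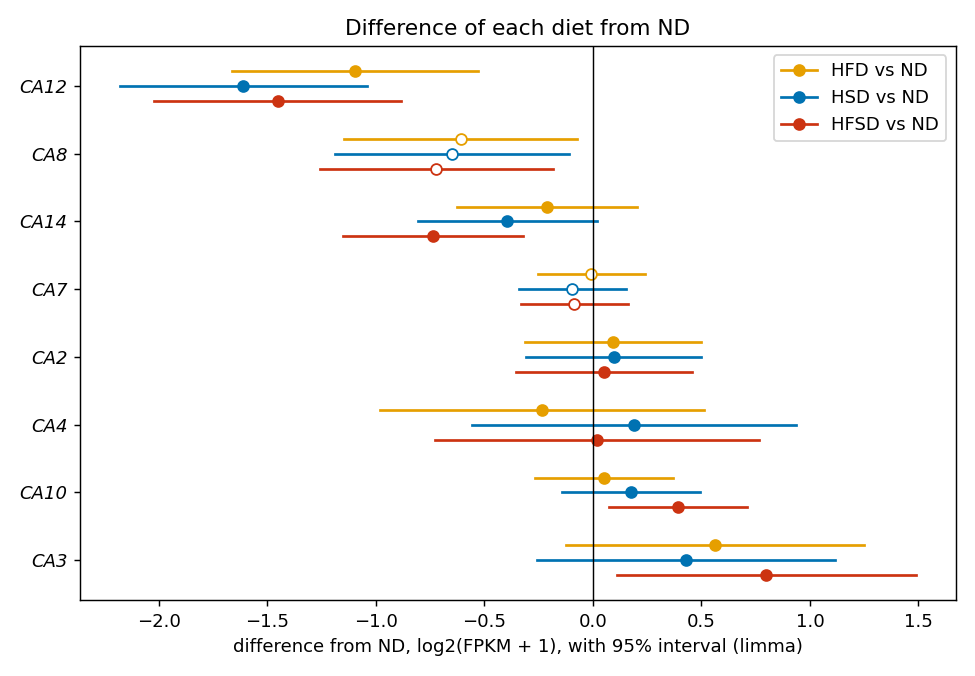
Difference of each diet from ND on the log2(FPKM + 1) scale (x axis) for the 8 members (y axis), with 95% intervals from limma. Filled points are members that passed the filter on low values, and open points are CA7 and CA8, taken from the same model without that filter. CA12 lies furthest to the left in all 3 diets, and the intervals of CA2 all include 0.

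Among the members fixed to the cell surface, CA12 showed the largest difference from ND. CA12 spans the membrane with its catalytic domain outside the cell and is known from epithelia that transport fluid. It was at 4.01 and 3.95 FPKM on ND, 0.907 and 1.85 on HFD, 0.751 and 0.520 on HSD, and 0.984 and 0.671 on HFSD. Both ND retinas were above all 6 others, as for 2.77% of the genes tested, and the HFD retinas were above both HSD retinas. The HSD and HFSD retinas overlapped. The mean was 3.98±0.0398 FPKM (s.d., n = 2) on ND, and HFD, HSD and HFSD stood at 34.6%, 16.0% and 20.8% of it.

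These levels rest on modest numbers of fragments. The 2 ND libraries together held 827 fragments of CA12 (95% Poisson interval 771.6 to 885.3). HFD held 289 (256.6 to 324.3), HSD 116 (95.9 to 139.1) and HFSD 184 (158.4 to 212.6). The interval of ND did not overlap that of any diet, but these intervals cover counting error only and leave out the spread between retinas.

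On the log2(FPKM + 1) scale, which understates differences of low genes, CA12 differed from ND by −1.10 on HFD (SE 0.243, limma adjusted p = 0.837). The difference was −1.61 on HSD (limma adjusted p = 0.151) and −1.45 on HFSD (limma adjusted p = 0.177). The unadjusted limma p-values were 0.00240, 0.000232 and 0.000448. CA12 passed the filter through its ND retinas, as among the diet retinas only the second HFD retina, at 1.85 FPKM, reached 1 FPKM. These p-values are therefore given as a description. The fold of means was 0.477, 0.328 and 0.367, and it stayed below 0.65 when any single retina was left out, between 0.305 and 0.572.

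With the diets crossed, the mean of HSD and HFSD was compared with that of ND and HFD. CA12 differed by −0.98 (SE 0.172) for sucrose, with a limma adjusted p of 0.0775 and values between 0.0813 and 0.250 under the alternatives tried. For fat the difference was −0.47 (limma adjusted p = 0.9996). The interaction of fat and sucrose was 1.25 (SE 0.343, limma adjusted p = 0.999), and HFSD was no lower than HSD. Before adjustment the limma p was 0.0278 for fat and 0.00741 for the interaction, and CA12 was the only member under 0.05 in either, where 3.2% and 3.74% of all genes tested were. The share of all genes tested with an adjusted p under 0.05 was 0.344% for sucrose, 0.00819% for fat and 0.00819% for the interaction, and no member was among them. At an unadjusted p under 0.05 there were 3 members for sucrose (CA12, CA14 and CA10), against 18.3% of all genes tested.

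The summed level of retinal pigment epithelium markers was, like CA12, highest on ND. Over the 12 of 13 listed genes present in the table, the summed level was 471 and 472 FPKM on ND, 237 and 275 on HFD, 202 and 134 on HSD, and 171 and 111 on HFSD. None of the 12 was at 0 in all libraries, and RPE65, the isomerase of the visual cycle, was at 119 and 74.6 FPKM on ND and at 10.1 to 34.8 FPKM in the 6 others. By the fold of means, 9 of the 12 were below the lower limit on HFD and HSD and 11 on HFSD, where 1.76%, 3.95% and 3.43% of protein-coding genes were past either limit. Of the 9 tested, 6 had an unadjusted p under 0.05 on HFD, 7 on HSD and 9 on HFSD, against 4.31%, 7.2% and 8.07% of all genes tested. For sucrose it was 9 of 9, all lower, against 18.3%. None was called by limma. LRAT passed the filter only through its ND retinas, at 9.29 and 3.13 FPKM against 0.155 to 0.749 FPKM in the others. Other members of the list differed from the order of the sum. RGR, an opsin of these cells, was at 136 and 213 FPKM on ND, 147 and 218 on HFD, 152 and 89.6 on HSD, and 98.8 and 85.3 on HFSD. BEST1, a chloride channel, was at 0.286 to 1.16 FPKM and not highest on ND. The part of these cells in the level of CA12 was not tested. In dissected retina, fewer cells of a type, less RNA per cell and less tissue carried along at dissection cannot be told apart.

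The genes whose log2 levels were most like those of CA12 over the 8 libraries were QARS (Pearson's r = 0.994), PLS3 (0.960) and STRA6 (0.960). They are given as a description, and all 3 share the libraries and the ND-to-diet step with CA12. STRA6, the membrane receptor that takes up retinol, was at 3.97 and 3.57 FPKM on ND and at 0.237 to 0.864 FPKM in the 6 others. QARS, a glutamine tRNA synthetase, spanned a far smaller range, 38.5 and 39.0 FPKM on ND and 33.4 to 36.3 FPKM in the others.

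CA14, which also spans the membrane, is found on Müller glia and on the pigment epithelium. It was at 111 and 163 FPKM on ND, 110 and 123 on HFD, 103 and 101 on HSD, and 82.7 and 78.4 on HFSD. Both HFSD retinas were below all 6 others. All 4 retinas from sucrose diets were below all 4 without sucrose, which held for 6.48% of the genes tested. The ND retinas differed from each other by more than the means of HFD and ND did.

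Group means of CA14 were 137±36.4 FPKM on ND, 116±9.35 on HFD, 102±1.27 on HSD and 80.5±3.03 on HFSD (s.d., n = 2). The differences from ND were −0.21, −0.39 and −0.74 on the log2 scale (SE 0.177). For HFSD the unadjusted limma p was 0.00374 and the adjusted p 0.364. The sucrose difference was −0.46 (SE 0.125, limma adjusted p = 0.153, and 0.0514 to 0.386 under the alternatives). The fold of means on HFSD was 0.590, but it was 0.726, and no longer past the limit, without the second ND retina, where CA14 was highest. On HSD it was 0.748, but it was 0.630 without the first ND retina and 0.919 without the second.

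A similar order appeared for CA14 relative to CA2 within libraries. This ratio does not depend on library scaling, but it carries the spread of CA2, which was at 408 and 555 FPKM on ND. CA14 was at 27.3% and 29.3% of the level of CA2 on ND, 20.6% and 25.5% on HFD, 19.4% and 20.9% on HSD, and 16.4% and 16.3% on HFSD. The HFD and HSD retinas overlapped. Its share of the sum over the 14 genes was 20.1% and 21.8% on ND and 13.2% and 13.1% on HFSD.

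The summed level of Müller glia markers was lower in all 4 sucrose retinas than in the 4 others, though not that of each gene. The sum over 9 of 9 listed genes, none at 0, was 3522 and 4754 FPKM on ND, 4146 and 3812 on HFD, 2773 and 2642 on HSD, and 2608 and 2699 on HFSD. Without GLUL, the largest of them, the sums were 2033 and 2627 on ND, 2461 and 2260 on HFD, 2019 and 1759 on HSD, and 1886 and 1810 on HFSD, so that the first HSD retina was near the first ND retina. For sucrose, 7 of the 9 were lower and 2 higher, none was called, and GLUL, CLU and RLBP1 had an unadjusted p under 0.05, where 18.3% of all genes tested did. Within this list, SLC1A3, the glial glutamate transporter, was even, at 180 to 203 FPKM in all 8 libraries. Whether either cell type bears on CA14 was not tested.

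**Figure D3:**
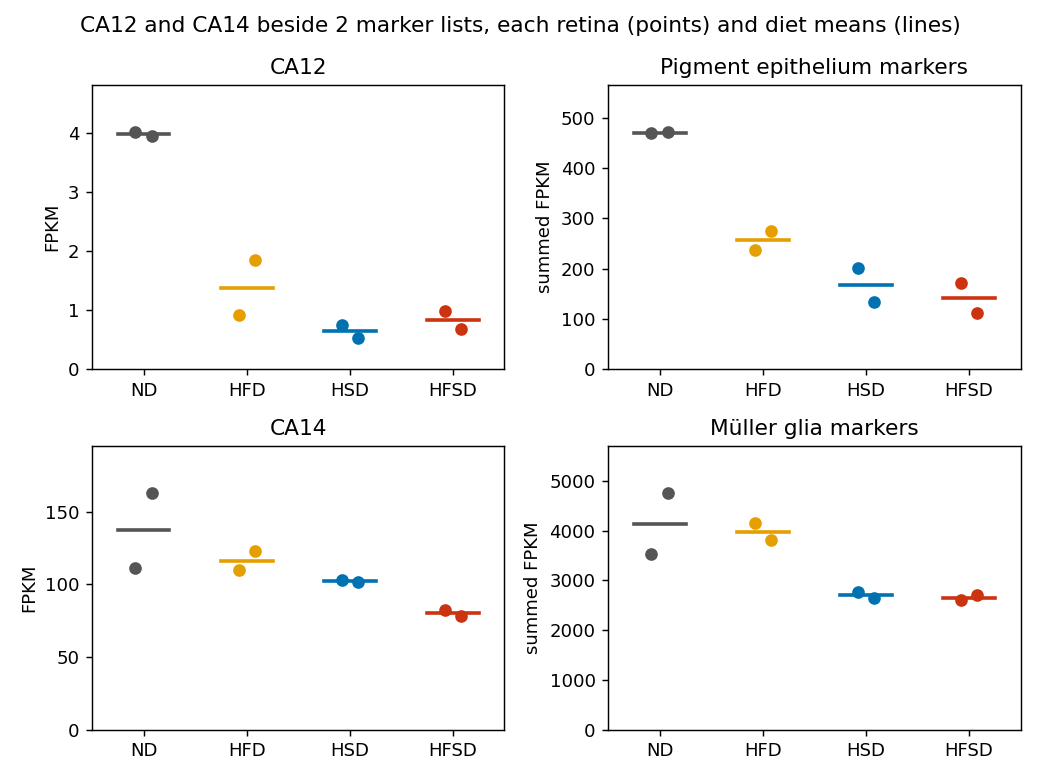
FPKM of CA12 and CA14 (left) beside the summed FPKM of the pigment epithelium and Müller glia marker lists (right), in the 4 diets (x axis). Points are single retinas, lines are means of 2 retinas, and all y axes start at 0. CA12 and the pigment epithelium sum are highest on ND (471 and 472 FPKM for the sum), and CA14 and the Müller sum are lowest in the sucrose diets.

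The genes most like CA14 included PXN (r = 0.993) and BCL2 (0.975), both with their highest level in the second ND retina. PXN, which encodes the focal adhesion protein paxillin, was at 11.3 and 16.1 FPKM on ND and at 8.75 and 8.55 FPKM on HFSD.

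CA4 is anchored to the membrane by a lipid and is known from the endothelium of the choriocapillaris. It was at 1.59 and 0.510 FPKM on ND, 0.704 and 0.660 on HFD, 0.892 and 1.69 on HSD, and 1.28 and 0.764 on HFSD, from 9 to 31 fragments per library. The ND retinas spanned nearly the whole range of the other groups. The differences from ND were −0.23, 0.19 and 0.02 (SE 0.319). The summed level over 7 of 7 listed endothelial markers was 103 to 149 FPKM in the same libraries, but most of it was KDR, at 75.8 to 131 FPKM. CLDN5, a tight junction protein of endothelium, was at 28.0 and 1.03 FPKM on ND, 20.3 and 6.76 on HFD, 1.16 and 0.794 on HSD, and 0.534 and 6.85 on HFSD. Its first ND retina was the highest of the 8, as was that of VWF. Whether these cells bear on CA4 was not tested.

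Among the cytosolic enzymes, CA2 is the fast and abundant form, found in Müller glia. It was at 408 and 555 FPKM on ND, 533 and 483 on HFD, 533 and 485 on HSD, and 505 and 482 on HFSD. The 6 diet retinas lay between the ND retinas. With 32589 to 49365 fragments per library, counting error was negligible. The differences from ND were 0.09, 0.10 and 0.05 on the log2 scale (SE 0.173), and their 95% intervals together ran from −0.35 to 0.50. None of the 3 intervals excluded 0.

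CA3, a slow cytosolic form known from skeletal muscle, liver and fat, was at 1.69 and 0.982 FPKM on ND, 2.52 and 2.30 on HFD, 3.17 and 1.32 on HSD, and 2.95 and 3.08 on HFSD. Both HFD and both HFSD retinas were above both ND retinas, whereas the second HSD retina lay between them. The difference from ND was 0.80 on HFSD (SE 0.294, limma adjusted p = 0.569). It was 0.56 on HFD and 0.43 on HSD.

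The fold of CA3 on HFSD was 1.72, and 1.495 without the second ND retina, which is below the limit. On HSD it was 1.39, but it was 1.79 without the second HSD retina and 0.993, in the other direction, without the first. The second HSD retina, with the muscle transcripts at 527 FPKM, had the lowest CA3 of the 6 diet retinas, at 1.32 FPKM. On HFD the fold was 1.46, and 1.72 without the first ND retina. The genes most like CA3 were BASP1 (r = 0.944), GPN3 (0.944) and RAB29 (0.938).

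CA7, a cytosolic form of neurons, stayed below the filter, at 0.0899 to 0.308 FPKM from 3 to 8 fragments per library. In the model without the filter its differences from ND were −0.01, −0.09 and −0.08 (SE 0.102). No difference of CA7 was detectable at this depth.

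Of the carbonic anhydrase-related proteins, CA10 binds neurexins at the neuronal surface. It was at 21.8 and 18.4 FPKM on ND, 22.6 and 19.1 on HFD, 24.2 and 21.4 on HSD, and 26.5 and 26.7 on HFSD. Both HFSD retinas were above the 6 others, and the other 3 groups overlapped. The mean was 20.1±2.39 FPKM on ND and 26.6±0.196 on HFSD (s.d., n = 2). The difference from ND was 0.39 on HFSD (SE 0.136, limma adjusted p = 0.564) and 0.17 on HSD. On HFD it was 0.05, and −0.0054 with libraries scaled to an equal FPKM sum. For sucrose it was 0.26 (limma adjusted p = 0.228). All folds of CA10 were inside the limits.

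CA8 binds the inositol trisphosphate receptor and is known from Purkinje cells. It was at 1.46 and 0.737 FPKM on ND, 0.535 and 0.195 on HFD, 0.527 and 0.138 on HSD, and 0.208 and 0.301 on HFSD. Every diet retina was below both ND retinas, as also for CA12. The ND libraries held 24 and 11 fragments, and the diet libraries 2 to 9. Summed over 2 libraries there were 35 fragments on ND (95% Poisson interval 24.4 to 48.7), 12 on HFD (6.20 to 21.0), 9 on HSD (4.12 to 17.1) and 8 on HFSD (3.45 to 15.8). The interval of ND did not overlap that of any diet, but these intervals leave out the spread between retinas.

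CA8 did not pass the filter. In the model without it, the differences from ND were −0.61, −0.65 and −0.72 (SE 0.222), and the limma adjusted p was 1, 0.634 and 0.587. The folds were 0.651, just short of the lower limit, 0.636 and 0.598. Without the first ND retina they were 0.786, 0.767 and 0.722, none past the limit. Without the second HSD retina the HSD fold was 0.728. The direction of CA8 was the same in each of these, but the call by fold rested on single libraries.

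Of the 7 further carbonic anhydrases looked up, 6 had a row and 3 passed the filter. None was called. CA13, another cytosolic form, was at 1.98 and 2.11 FPKM on ND, 1.98 and 2.06 on HFD, 1.35 and 1.27 on HSD, and 1.74 and 1.58 on HFSD. All 4 sucrose retinas were below the 4 others, as for 6.48% of the genes tested. The sucrose difference was −0.29 (limma adjusted p = 0.253), and HSD differed from ND by −0.40 (limma adjusted p = 0.690).

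The mitochondrial form CA5B was also lower in all 4 sucrose retinas, at 0.997 to 1.06 FPKM, than in the 4 others, at 1.12 to 1.39 FPKM. Such a separation held for 6.48% of the genes tested. The differences of CA5B from ND were small, −0.10, −0.19 and −0.14 (SE 0.184), and for sucrose it differed by −0.11 (limma adjusted p = 0.669). CA6, the secreted form of saliva, varied widely within each group other than ND. It was at 1.24 and 1.22 FPKM on ND, 0.262 and 2.15 on HFD, 1.33 and 4.28 on HSD, and 1.95 and 0.995 on HFSD. Its fold on HSD was 1.71. The log2 difference there was 0.65, and 0.063 without the library that held the muscle transcripts.

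CA9, which spans the membrane as CA12 does and is known as a hypoxia target, was far lower than CA12 on ND, at 0.0773 and 0.213 FPKM. It was at 0.189 and 0.331 FPKM on HFD, 0.384 and 0.351 on HSD, and 0.464 and 0.862 on HFSD. Both HFSD retinas were the highest of the 8. The 2 libraries together held 7 fragments on ND (95% Poisson interval 2.81 to 14.4) and 32 on HFSD (21.9 to 45.2). In the model without the filter, HFSD differed from ND by 0.53 (limma adjusted p = 0.501). CA1, the red blood cell form, gave 0 to 4 fragments per library, and the mitochondrial form CA5A gave 1 fragment in the first ND library and was listed at 0 in the 7 others.

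In the pathway list of nitrogen metabolism, which groups the carbonic anhydrases with ammonia-handling enzymes, 2 of 4 further genes had a row. GLUL, the glutamine synthetase of Müller glia, was at 1489 and 2127 FPKM on ND, 1685 and 1551 on HFD, 754 and 883 on HSD, and 722 and 890 on HFSD. All 4 sucrose retinas were below the 4 others, as for 6.48% of the genes tested. The sucrose difference was −1.07 (SE 0.156, limma adjusted p = 0.0501), with adjusted values between 0.0261 and 0.187 under the alternatives. The sucrose difference of CA2 was 0.03, with a 95% interval of −0.26 to 0.31. CPS1, which makes carbamoyl phosphate from ammonia and bicarbonate, was at 0.0624 to 0.196 FPKM.

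Transporters that carry the products of the enzymes were looked at by lists. Of the bicarbonate and chloride transporters, 17 of 18 had a row, 9 passed the filter and none was called in any comparison. On HFD all 9 were lower than on ND, with a median of −0.15 against 0.0063 over all genes tested. SLC4A4 alone had an unadjusted limma p under 0.05 there, where 4.31% of all genes tested did. On HSD and on HFSD 5 were higher and 4 lower. For sucrose, 2 of the 9 had an unadjusted p under 0.05, both higher, where 18.3% of all genes tested did. SLC4A10, a sodium-dependent bicarbonate transporter of neurons, was at 28.9 and 20.3 FPKM on ND, 22.6 and 24.3 on HFD, 30.0 and 32.0 on HSD, and 32.5 and 32.7 on HFSD. All 4 sucrose retinas were above the 4 others, as for 6.39% of the genes tested, by 0.40 on the log2 scale (limma adjusted p = 0.165). The sulphate and chloride exchanger SLC26A2 differed by 0.51 (limma adjusted p = 0.238). SLC26A7, below the filter, lay past the lower fold limit on HSD, at 0.172 and 0.315 FPKM against 1.21 and 0.790 on ND.

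Of the proton and lactate transporters, 11 of 16 passed the filter and none was called. For sucrose, 3 were higher and 2 lower at an unadjusted p under 0.05, which 18.3% of all genes tested had. SLC16A1, the monocarboxylate transporter MCT1, was at 163 to 227 FPKM in the 4 retinas without sucrose and at 140 to 164 FPKM in the 4 with it, a difference of −0.44 (limma adjusted p = 0.150). These ranges overlapped by the first ND and the second HFSD retina. The endosomal sodium-proton exchanger SLC9A9 differed by −0.55 (limma adjusted p = 0.106), and SLC9A7, an exchanger of the Golgi, by 0.41 (limma adjusted p = 0.144). The lactate and pyruvate carrier SLC16A7 differed by 0.58 (limma adjusted p = 0.199). EMB, a partner protein of monocarboxylate transporters, differed by 0.51 for sucrose (limma adjusted p = 0.174), but not in the same direction in both sucrose diets. Against ND its log2 difference was −0.54 on HFD, −0.12 on HSD and 0.61 on HFSD.

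Among bicarbonate sensors and pores for water or gas, 6 of 10 passed the filter and none was called. GUCY2D, the retinal guanylyl cyclase, differed by 0.27 for sucrose (limma adjusted p = 0.189). AQP4, the water channel of Müller glia, was past the lower fold limit on HSD, at 3.21 and 5.48 FPKM against 13.8 and 5.01 FPKM on ND, which it overlapped.

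As CA9 and CA12 are both known as hypoxia targets, the other genes of a hypoxia list are given beside them. Of 13 listed genes, 11 were tested and none was called. For sucrose, 5 were higher and 6 lower, with a median of −0.093 over the list against −0.0073 over all genes tested. At an unadjusted p under 0.05 there were 4, all lower, where 18.3% of all genes tested passed. For fat all 11 were higher, with a median of 0.14 against 0.0072 over all genes tested, and ADM alone had an unadjusted p under 0.05, where 3.2% of all genes tested did. Against ND, 8 of the 11 were higher on HFD, 1 on HSD and 7 on HFSD. SLC2A1, the glucose transporter of the pigment epithelium and of the retina, was at 246 to 303 FPKM in the 4 retinas without sucrose and at 169 to 211 FPKM in the 4 with it. Its difference was −0.54 (limma adjusted p = 0.0922). NDRG1 differed by −0.75 (limma adjusted p = 0.209), and by −0.44 without the second HSD retina, where it was lowest. The peptide hormone gene ADM and the glycolytic regulator PFKFB4 were the other two.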

How the data were processed

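Per the study's methods, poor read ends were removed, alignment to a rabbit genome used TopHat2, and reads with several locations were left out. The authors then computed FPKM per gene and library by a script of their own, and this is the deposited unit. The table's name speaks of counts, but the values are not whole numbers. The genome build is not given in the sources used here, so no coordinates or sequences are given. Whole fragments were recovered from the FPKM steps and used only for depth, Poisson intervals and an alternative test.

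Libraries were grouped by their titles. The members and lists were chosen with earlier results of these data known. Of the protein-coding genes, those reaching 1 FPKM in 2 or more libraries (12204) were tested on log2(FPKM + 1) with limma 3.58.1 in R 4.3.3, with an intensity trend, in 1 model of 4 diet means over 8 libraries. Contrasts were each diet against ND, sucrose, fat and their interaction, with two-sided p-values and Benjamini-Hochberg adjustment over all genes tested. Genes below the filter were read from the same model without it. The script was tested on simulated data. Named genes are all members, all other carbonic anhydrases and nitrogen metabolism genes found, and, from the other lists, genes past a fold limit or with an unadjusted p under 0.05 in the comparison described, plus the 3 most alike genes of each member that passed the filter and a fold limit, of which 1 is not reported here. Marker genes are quoted as levels. Alternatives were a pseudocount of 0.1, no filter, a minimum of 5 FPKM, 2 scalings, a replicate block, fits of 4 libraries, voom, each library left out, and, added after the data were seen, a model without the interaction.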

Additional observations from a re-analysis of the deposited data

How the results depend on the processing

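Of 794 differences computed for single genes under the alternatives, 770 kept their direction and their side of the threshold, 19 changed direction and 5 passed the threshold. No member was called under any alternative. The 5 were GLUL for sucrose, with limma adjusted p-values of 0.0427 (minimum of 5 FPKM), 0.0487 (equal FPKM sum), 0.0435 (voom), 0.0323 (without the first ND retina) and 0.0261 (no interaction term, chosen after seeing the data). The number of members past a fold limit in HFD was 3 with a pseudocount of 0.1, 2 with an equal FPKM sum and 1 to 3 with a retina left out, against 1 in the report. In HSD it was 3 with a pseudocount of 0.1 and 2 to 3 with a retina left out, against 2. In HFSD it was 2 to 4 with a retina left out, the lowest without the second ND retina, against 4. CA10 in HFD was −0.0054 with an equal FPKM sum. With a retina left out, the differences from ND that changed direction ranged as follows. CA2 was at −0.13 to 0.31 in HFD, −0.13 to 0.32 in HSD and −0.17 to 0.27 in HFSD, and at −0.083 to 0.14 for sucrose. CA4 was at −0.62 to 0.16, −0.20 to 0.58 and −0.37 to 0.41, and CA7 at −0.11 to 0.093, −0.19 to 0.0056 and −0.18 to 0.015. In HFD, CA10 was at −0.065 to 0.17 and CA14 at −0.48 to 0.061. The other member differences that were recomputed kept their direction: each diet against ND for the members found, sucrose for CA10, CA12 and CA14, and fat and the interaction for CA12. For CA3 in HSD the fold of means, unlike the mean of log2 values, turned to 0.993 without the first HSD retina.

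The replicate numbers are library numbers. Deviations of the first libraries correlated between diets by −0.165 to 0.0813, so the samples were not taken as paired. With the replicate number as a block, 0 members were called in every comparison, and over all genes the calls for sucrose went from 42 to 25. The cause was not tested. With 2 retinas a group, adjusted p-values near 1 say little about stability. CA3, CA4 and CA12 have no value under the 5 FPKM minimum, and CA7 and CA8 none in fits with the filter. Fits of 4 libraries exist only for the diets against ND.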
